A study of Mus musculus with 18 samples.

Results

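Chemokines are small secreted proteins that direct the movement of leukocytes, and chemokine receptors are the surface proteins that read them. All genes of the array whose name begins with Ccl, Cxcl, Ccr or Cxcr followed by a number were taken, together with *Cx3cl1*, a membrane-bound ligand, and *Ackr3*, an atypical receptor that binds and removes ligand. This gave 53 genes of the 37074 gene names on the array, with 73 probes, of which 35 genes encode ligands and 18 encode receptors. All 53 names are current symbols in the RefSeq gene table.

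RNA came from ileum cells of 18 mice, each on its own Agilent 1-colour array, and the 3 groups held 6 mice each: iPGC1afl/fl on chow, iPGC1afl/fl on HFD, and iPGC1a-/- on HFD. All mice were C57BL6/J and carried floxed *Ppargc1a* alleles, from which a Cre under the Villin promoter removes exons in intestinal epithelium of iPGC1a-/- mice, so that leukocytes in these samples keep the gene. HFD, the Western diet of the study, drew 42% of its kcal from fat, held 0.2% cholesterol and was fed for 8 weeks to mice aged 8 weeks at the start, and all mice were fasted before sacrifice at Zeitgeber time 3. Cells were released from the ileum by repeated shaking in a chelating buffer, and iPGC1a-/- mice on chow were not analysed here. In the arrays labelled iPGC1a-/-, *Ppargc1a* was no lower, and its values ran higher at both tested probes. Its brighter probe (chr5:51848928-51848987, mm9) gave 11.36 to 12.01 there and 11.26 to 11.45 in iPGC1afl/fl mice on HFD, on the log2 scale. The dimmer probe gave 9.32 to 9.71 and 8.97 to 9.39. The exons in which the probes lie were not determined, so they do not check the labels, and directions by genotype refer to the arrays as labelled.

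In the small intestine, chemokines bring lymphocytes into the epithelium and the lymphoid follicles. Ccl25 from enterocytes attracts T cells and plasma cells with Ccr9, Ccl28 attracts antibody-secreting cells with Ccr10, and Ccl20 from the epithelium over the follicles attracts B cells and dendritic cells with Ccr6. Within follicles, Ccl19 and Ccl21 guide cells with Ccr7 and Cxcl13 guides cells with Cxcr5. Cxcl9, Cxcl10 and Cxcl11, which interferon induces, act on Cxcr3 of activated T cells, and Ccl3, Ccl4 and Ccl5 attract T cells and monocytes.

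The scanner software marks spots that are well above background, and a gene was tested when in some group a probe of it was so marked on 5 or 6 of the 6 arrays. By this filter 27 of the 53 genes were tested, 18 of the 35 ligands and 9 of the 18 receptors. Each is given by its brightest tested probe as log2 normalized signal, a scale on which 1 unit is a doubling and on which levels of different genes cannot be compared. A gene was called when its fold change exceeded 1.5 and its limma p, adjusted by Benjamini-Hochberg over all 32726 tested probes, was 0.05 or lower. Of the tested genes, 15 were well above background on all 18 arrays. Another 5 (*Ccl3*, *Cxcl9*, *Cxcl10*, *Cxcr4* and *Cxcr5*) passed only through the mice on chow, and 2 (*Ccr10* and *Cxcl14*) only through the iPGC1a-/- mice.

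The other 26 genes were below the filter, and 20 of them were not well above background on any array at any probe. These 20 include the neutrophil-attracting ligands *Cxcl2*, *Cxcl3* and *Cxcl5* with their receptors *Cxcr1* and *Cxcr2*, the monocyte axis of *Ccl2*, *Ccl7*, *Ccl8*, *Ccl12* and *Ccr2*, the eosinophil ligands *Ccl11* and *Ccl26*, the follicular ligands *Ccl19* and *Cxcl13*, and *Cxcl12*, the ligand of Cxcr4. *Ccl22*, *Ccr1*, *Ccr1l1*, *Cxcl15* and *Cxcl17* complete the group. *Ccr3*, the eotaxin receptor, was well above background on 11 arrays (4, 4 and 3 by group), *Ackr3* and *Ccl21a* on 3 arrays (1 in each group), and *Ccr4* and *Cxcl1* on 1 array, of mice on chow. No level is given for these genes.

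On HFD, iPGC1afl/fl mice had lower signals of 8 ligands and 6 receptors than on chow, and limma called 0 of the tested genes higher, where 3.22% of all genes were called higher (3 were higher at an unadjusted p under 0.05, where 16.4% of all genes were). The 14 called genes stood against a share of 8.43% called among all 21542 genes tested, and 5.20% called lower. The called ligands were *Ccl4*, *Ccl5*, *Ccl6*, *Ccl9*, *Ccl20*, *Ccl28*, *Cxcl9* and *Cxcl10*, and the called receptors were *Ccr6*, *Ccr7*, *Ccr9*, *Cxcr3*, *Cxcr5* and *Cxcr6*. Of these, 3 (*Cxcl9*, *Cxcl10* and *Cxcr5*) had passed the filter only through the mice on chow. For these 3 the filter itself favours a lower value on HFD, which also holds for the separation of *Cxcl9* given below. Among the 15 genes well above background on all arrays, 8 were called, all lower, where 7.95% of the 18828 genes of that kind were called. The median log2 difference was -0.66 over the 27 tested genes and 0.00 over all genes tested. A lower mean on HFD was found in 22 of the 27, and in 10666 of all 21542 genes tested. Without the fold threshold 18 of the 27 passed, against 24.6% of all genes. The 22 and the 18 include *Ccl3* and *Cxcr4*, which also passed the filter only through the mice on chow. For them too the filter favours a lower value on HFD. In 5 of the 27 (*Ccl5*, *Ccl20*, *Ccl28*, *Ccr9* and *Cxcl9*) the 6 mice on HFD lay wholly below the 6 on chow, a separation in either direction that 10.4% of all genes showed. All 14 called genes were lower on HFD within each of the 3 slides, which held 2 arrays of every group. So were *Ccl3*, *Cxcr4*, *Cxcl16* and *Cx3cl1*, which were not called. The slides hold the same arrays that gave the calls, so this is not a separate test of them.

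**Figure D1:**
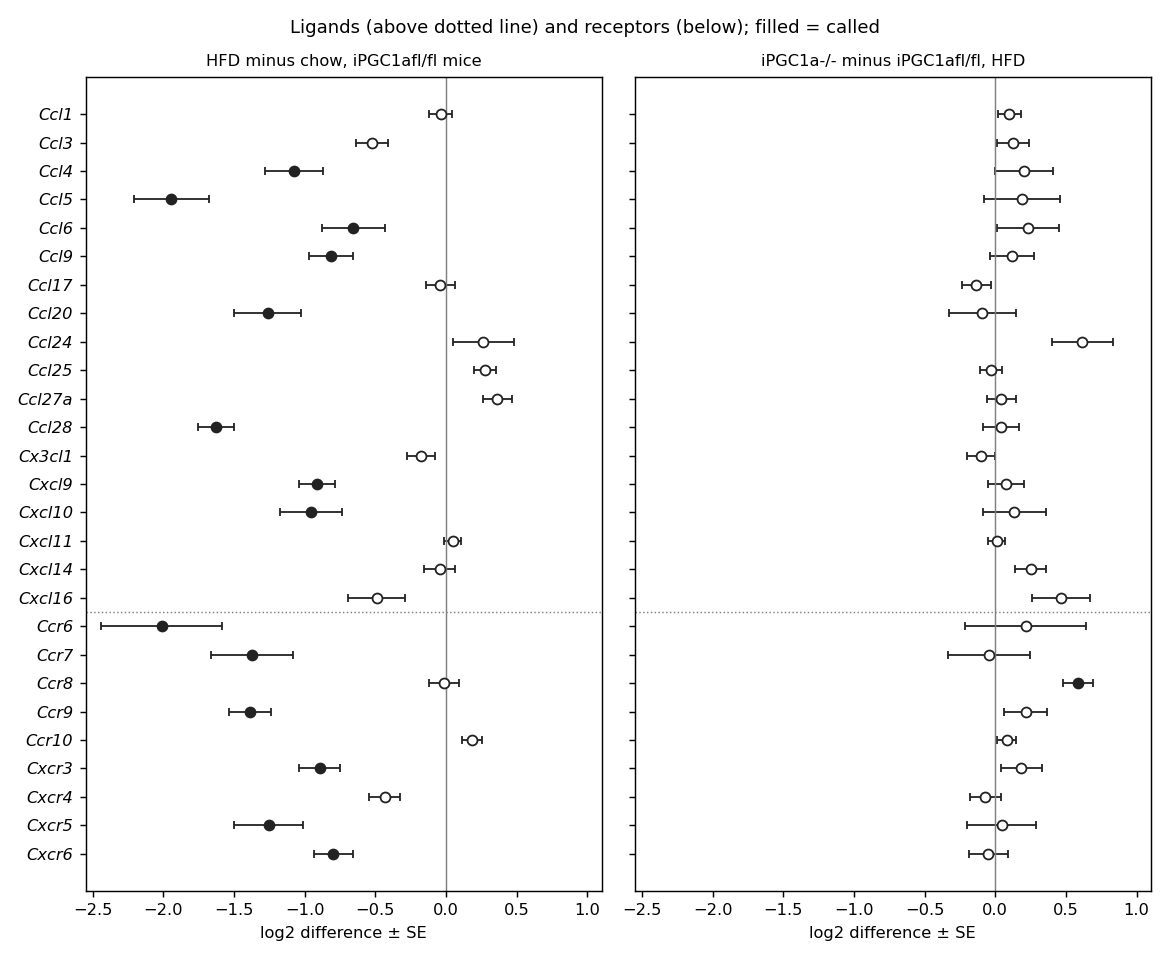
Log2 difference with its standard error for the 27 tested genes, HFD minus chow in iPGC1afl/fl mice on the left and iPGC1a-/- minus iPGC1afl/fl on HFD on the right, with 6 mice in each group and filled points for called genes. The called points on the left all lie below 0, from -0.66 for *Ccl6* to -2.01 for *Ccr6*, and on the right *Ccr8* alone is called, at 0.59.

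The epithelial ligands *Ccl20* and *Ccl28* fell on HFD without overlap of the groups. *Ccl20* (probe at chr1:83115500-83115559, mm9) ranged from 5.62 to 7.51 on chow (median 6.82) and from 5.09 to 5.54 on HFD (median 5.39). Every mouse on HFD was below every mouse on chow, although chow replicates 2 and 3, at 5.79 and 5.62, stood close to them. The log2 difference was -1.26 (SE 0.24, adjusted p = 0.000648), a 2.40-fold lower signal, and ran from -2.06 with the processed signal to -0.84 with normexp background correction. A two-sided exact permutation test over the 924 divisions of 12 mice gave p = 0.00216, the smallest value that 6 against 6 allow. In iPGC1a-/- mice on HFD *Ccl20* ranged from 5.05 to 5.56 (median 5.21), across the range of iPGC1afl/fl mice on HFD.

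*Ccl28*, which also has antimicrobial activity in mucosal secretions, ranged from 8.6 to 9.11 on chow (median 8.94) and from 6.91 to 7.66 on HFD (median 7.26). The gap between the lowest chow mouse and the highest HFD mouse was wider than the range of either group. The log2 difference was -1.63 (SE 0.13, adjusted p = 5.66e-08, exact permutation p = 0.00216), or 3.09-fold lower. Its second tested probe gave -1.24 (SE 0.10, adjusted p = 1.17e-07). The iPGC1a-/- mice on HFD were at 7.08 to 7.49 (median 7.29), inside the range of iPGC1afl/fl mice on the same diet. In the array files this gene lies on the unplaced part of chromosome 13 of mm9.

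To show the regulatory sequence next to the genes that moved together, the 250 bases before the transcription start are printed for the 3 called ligands that hold either of 2 short motifs and for *Ccl28*, which holds neither. They are from RefSeq on GRCm38.p6, written 5′ to 3′ on the strand of the gene, and capitals mark the motif. The intervals are chr1:83116516-83116765 (plus strand) for *Ccl20*, chr11:83578637-83578886 (minus strand) for *Ccl9*, chr5:92348890-92349139 (minus strand) for *Cxcl10* and chr13:119623569-119623818 (plus strand) for *Ccl28*.
Ccl20: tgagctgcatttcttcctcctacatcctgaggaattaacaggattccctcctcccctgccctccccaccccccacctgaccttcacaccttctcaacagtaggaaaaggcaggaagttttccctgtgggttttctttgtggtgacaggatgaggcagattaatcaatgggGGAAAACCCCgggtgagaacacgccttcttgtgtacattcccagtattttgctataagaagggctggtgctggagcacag
Ccl9: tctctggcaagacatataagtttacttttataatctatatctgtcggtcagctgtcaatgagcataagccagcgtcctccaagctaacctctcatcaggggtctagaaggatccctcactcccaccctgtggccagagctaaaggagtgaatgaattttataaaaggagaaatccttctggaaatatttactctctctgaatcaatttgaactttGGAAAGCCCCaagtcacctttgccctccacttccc
Cxcl10: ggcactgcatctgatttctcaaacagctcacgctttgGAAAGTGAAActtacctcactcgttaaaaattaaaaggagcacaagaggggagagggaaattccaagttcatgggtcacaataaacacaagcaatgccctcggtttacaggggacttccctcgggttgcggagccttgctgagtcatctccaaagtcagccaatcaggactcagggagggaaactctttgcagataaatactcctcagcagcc
Ccl28: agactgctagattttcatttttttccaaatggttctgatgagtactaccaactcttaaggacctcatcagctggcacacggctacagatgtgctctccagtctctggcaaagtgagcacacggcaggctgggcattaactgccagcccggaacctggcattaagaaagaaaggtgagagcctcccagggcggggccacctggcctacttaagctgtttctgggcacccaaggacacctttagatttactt

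Searched on both strands were GGG followed by any 2 bases and TTTCC, a form of the site bound by NF-kB, and GAAA followed by any 2 bases and GAAA, the core of the interferon-stimulated response element. In *Ccl20* GGAAAACCCC, on the opposite strand, began at base -80 and in *Ccl9* GGAAAGCCCC, likewise on the opposite strand, at base -35, counted from the transcription start. *Cxcl10*, a gene that interferon induces, held GAAAGTGAAA from base -213. The promoter table had 42 entries for 38 of the 53 genes, and 10 of the 14 called genes had an entry. The NF-kB form was found in 1.41% of all 32851 promoters of this length and in 6 of the 42 entries, those of *Ccl9*, *Ccl20*, *Ccr3*, *Cxcl1*, *Cxcl2* and *Cxcl3*. The interferon element was found in 2.98% of all promoters and in 3 of the 42, those of *Ccl19*, *Cxcl10* and *Cxcl14*. Of the 38 genes with an entry, 0 held both motifs as searched. Other forms of the NF-kB site were not searched, so a gene without this form may still hold one. Of the genes with a motif, *Ccl19*, *Ccr3*, *Cxcl1*, *Cxcl2* and *Cxcl3* were below the filter, *Cxcl14* was tested and not called, and *Ccl9*, *Ccl20* and *Cxcl10* fell on HFD. Of the 10 called genes with an entry, 2 held the NF-kB form, 1 held the interferon element and the others held neither. A link between motif and fall was not tested.

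*Ccl5*, which activated and intraepithelial T cells store and release, fell on HFD. It ranged from 12.80 to 14.70 on chow (median 14.38) and from 11.83 to 12.55 on HFD (median 12.09), with no overlap (probe at chr11:83339296-83339355, mm9). Chow replicates 5 and 6 were low for their group, at 13.49 and 12.80. The log2 difference was -1.94 (SE 0.27, adjusted p = 2.58e-05, exact permutation p = 0.00216), a 3.85-fold lower signal. It varied between slides, from -1.12 to -2.53. *Ccl4*, which activated T cells and macrophages release, ranged from 6.59 to 8.06 on chow (median 7.60) and from 6.11 to 6.76 on HFD (median 6.27), and the groups overlapped by HFD replicate 5 and chow replicate 6. Its difference was -1.08 (SE 0.20, adjusted p = 0.000659, exact permutation p = 0.00433), and its second probe gave -1.06. *Ccl3*, the neighbour of *Ccl4* on chromosome 11, went from 5.15 to 6.11 on chow (median 5.56) to 4.93 to 5.33 on HFD (median 5.02). That difference of -0.52 (SE 0.11, adjusted p = 0.00200) missed the fold threshold, and the probe was well above background on 6 arrays on chow and on 1 on HFD, so that the size is compressed near background. The 3 ligands shared their extremes on chow, with the highest signal in replicate 2 and the lowest in replicate 6.

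*Ccl6* and *Ccl9*, ligands of Ccr1 that lie next to each other on chromosome 11, fell less. *Ccl9*, which follicle-associated epithelium makes, ranged from 8.47 to 9.03 on chow (median 8.62) and from 7.34 to 8.53 on HFD (median 7.83). Only HFD replicate 1, at 8.53, reached the chow range, and the difference was -0.82 (SE 0.16, adjusted p = 0.000735, exact permutation p = 0.00433). *Ccl6* ranged from 12.73 to 13.19 on chow (median 12.91) and from 11.38 to 13.29 on HFD (median 12.22). The same HFD replicate 1 had the highest *Ccl6* of all 18 arrays. The difference of -0.66 (SE 0.22, adjusted p = 0.0379, exact permutation p = 0.0455) was lost under 5 of 14 processing alternatives and when any of 6 single arrays was left out (chow replicates 2, 3 and 4, HFD replicates 2, 3 and 6), with adjusted p up to 0.108. HFD replicate 1 also had the highest summed signal of macrophage and dendritic cell markers of all arrays, and the part of those cells in the *Ccl6* and *Ccl9* values was not tested.

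*Cxcl9* and *Cxcl10*, interferon-induced ligands of Cxcr3, were dim and lower on HFD. *Cxcl9* ranged from 5.19 to 6.01 on chow (median 5.68) and was well above background on all 6 arrays there, and on none of the 12 HFD arrays. Against the lowest signal that counted as well above background, it was at least 1.68-fold higher on chow (adjusted p = 3.20e-05). *Cxcl10* ranged from 5.62 to 6.89 on chow (median 6.08) and from 5.04 to 5.66 on HFD (median 5.15). The groups overlapped by HFD replicate 5 at 5.66 and chow replicate 3 at 5.62, and the probe was well above background on 4 of 6 arrays of iPGC1afl/fl mice on HFD. The difference was -0.96 (SE 0.22, adjusted p = 0.00362, exact permutation p = 0.00433). With normexp background correction, *Cxcl9* and *Cxcl10* no longer reached the fold threshold (-0.51 and -0.58), and with the processed signal *Cxcl10* was at -1.73. *Cxcl11*, the third ligand of Cxcr3, was at 17.44 ± 0.05 on chow and 17.48 ± 0.08 on HFD (SD, n = 6 mice each). Its reading frame is known to be disrupted in C57BL/6 mice. A second probe for the same transcript was far dimmer, at 11.93 and 11.85, with a difference of -0.08 against 0.05 at the brighter probe. What the brighter probe measures is therefore uncertain.

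**Figure D2:**
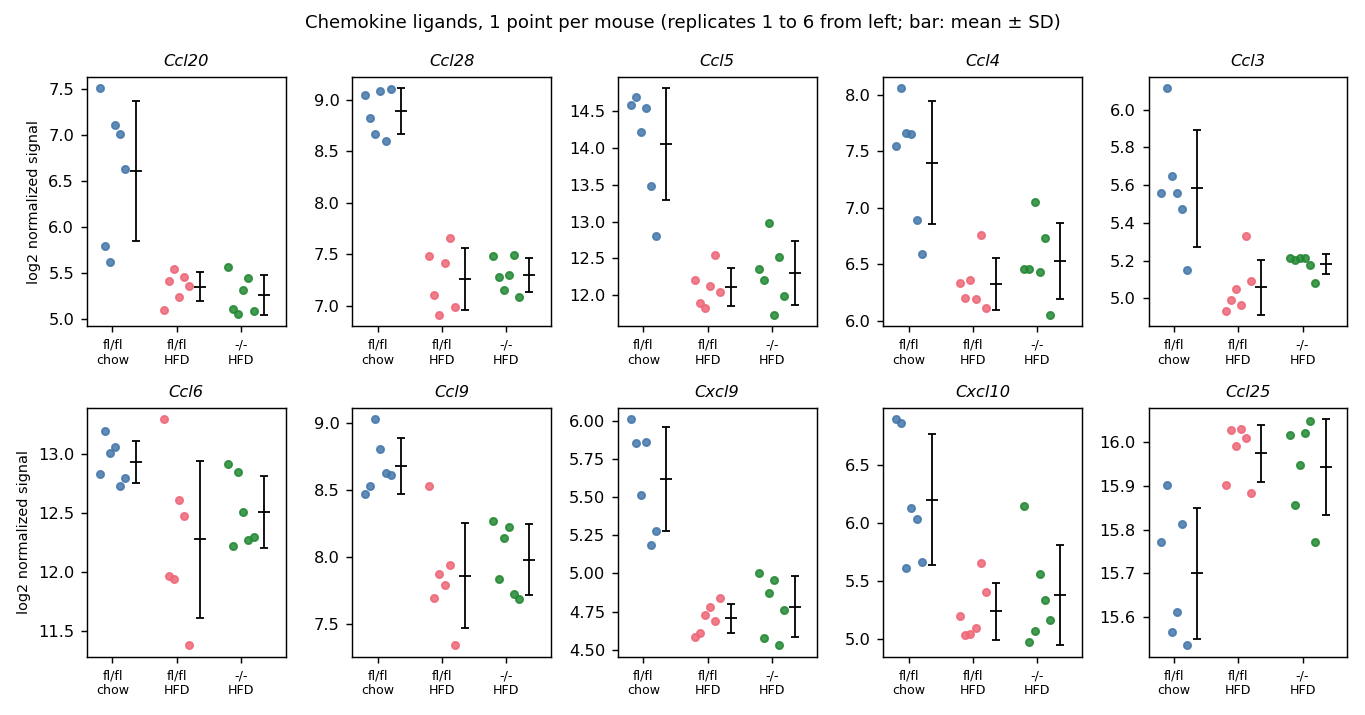
Log2 normalized signal of 10 ligands in each of the 18 mice, with points for replicates 1 to 6 from left to right in each group and the group mean ± SD at the side; each panel has its own axis, which does not start at 0. *Ccl20*, *Ccl28*, *Ccl5* and *Cxcl9* show no overlap between chow and HFD in iPGC1afl/fl mice, while *Ccl25* is higher on HFD by 0.27.

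The remaining ligands were not called. *Ccl25* went from 15.54 to 15.90 on chow to 15.88 to 16.03 on HFD. The groups overlapped by chow replicate 2 and HFD replicate 6, and the difference of 0.27 (SE 0.08, adjusted p = 0.0128) was under the fold threshold, while its 3 further probes gave 0.15, 0.37 and -0.02. *Ccl27a*, a skin-type ligand of Ccr10 whose family has near-identical copies in the mouse genome, was higher on HFD by 0.36 (SE 0.10, adjusted p = 0.0138), also under the fold threshold, and since copies could share a probe this value is uncertain. *Cxcl16*, a membrane-bound ligand of Cxcr6, ranged from 8.31 to 9.30 on chow and from 7.92 to 8.96 on HFD, a difference of -0.49 (SE 0.20, adjusted p = 0.0884). Its second probe gave -0.53 (adjusted p = 0.0139), short of the fold threshold. *Cx3cl1*, the ligand of Cx3cr1, was at 12.63 ± 0.17 on chow and 12.45 ± 0.18 on HFD (SD, n = 6 mice each; adjusted p = 0.207). *Ccl1*, *Ccl17*, *Ccl24*, *Cxcl11* and *Cxcl14* had differences between -0.04 and 0.26 with adjusted p of 0.406 or more.

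Receptors found on cells of B cell follicles fell on HFD. *Ccr6*, the receptor of Ccl20, ranged from 6.67 to 9.10 on chow (median 7.79) and from 4.82 to 7.34 on HFD (median 5.64) (probe at chr17:8449933-8449992, mm9). The groups overlapped, since HFD replicate 5 at 7.34 was above chow replicates 2 and 3 at 6.67 and 7.23. The difference was -2.01 (SE 0.43, adjusted p = 0.00184, exact permutation p = 0.00866), a 4.03-fold lower signal. *Ccr7*, which guides lymphocytes and dendritic cells into lymphoid tissue, ranged from 5.62 to 7.65 on chow (median 6.86) and from 4.76 to 6.51 on HFD (median 5.24). Again HFD replicate 5 was the highest on HFD and chow replicate 2 the lowest on chow, and the difference was -1.37 (SE 0.29, adjusted p = 0.00176, exact permutation p = 0.00866). *Cxcr5*, the follicle-homing receptor of B cells, ranged from 5.52 to 7.26 on chow (median 6.28) and from 4.74 to 5.93 on HFD (median 5.00). Its difference was -1.25 (SE 0.24, adjusted p = 0.000861, exact permutation p = 0.00433), with the same mice at the extremes. The probes of *Ccr6* and *Ccr7* were well above background on 3 of the 6 arrays of iPGC1afl/fl mice on HFD and that of *Cxcr5* on 2, and the size of each difference varied between processing alternatives. All 3 genes stayed called, but *Ccr6* ran from -3.29 with the processed signal to -1.47 with normexp, *Ccr7* from -2.43 to -0.89 and *Cxcr5* from -2.90 to -0.75.

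Receptors of T cells in the epithelium fell as well. *Ccr9*, the receptor of Ccl25 that marks gut-homing T cells, ranged from 7.81 to 8.81 on chow (median 8.45) and from 6.71 to 7.41 on HFD (median 6.92), without overlap. The difference was -1.39 (SE 0.15, adjusted p = 2.40e-06, exact permutation p = 0.00216), 2.62-fold lower, and its dimmer second probe gave -0.61 (adjusted p = 0.000857). *Cxcr3* ranged from 6.19 to 7.24 on chow (median 6.84) and from 5.69 to 6.38 on HFD (median 5.84). HFD replicate 5 exceeded chow replicate 6, and the difference was -0.90 (SE 0.15, adjusted p = 0.000171, exact permutation p = 0.00433). *Cxcr6*, found on resident T cells and innate lymphocytes, ranged from 7.32 to 8.13 on chow (median 7.94) and from 6.93 to 7.43 on HFD (median 7.0). The overlap again rested on HFD replicate 5 and chow replicate 6, and the difference was -0.80 (SE 0.14, adjusted p = 0.000266), with -0.90 at the second probe. *Cxcr4*, the receptor of Cxcl12 on most leukocytes, was lower by 0.43 on the log2 scale (SE 0.11, adjusted p = 0.00673), under the fold threshold, and was well above background on 6 arrays on chow and 1 on HFD. *Ccr8* and *Ccr10* gave -0.02 and 0.18 and were not called.

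**Figure D3:**
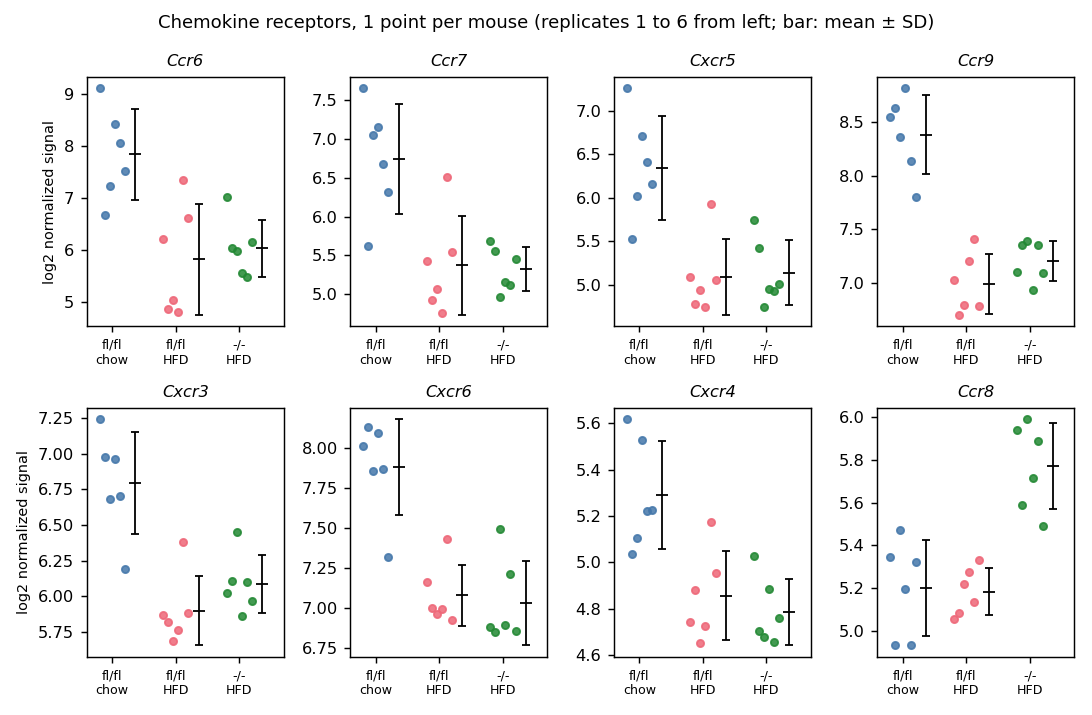
Log2 normalized signal of 8 receptors in each of the 18 mice, with points for replicates 1 to 6 from left to right and the group mean ± SD at the side; each panel has its own axis, which does not start at 0. *Ccr9* shows no overlap between chow and HFD, *Ccr6*, *Ccr7* and *Cxcr5* have their highest HFD value in iPGC1afl/fl replicate 5, and *Ccr8* is higher in all 6 iPGC1a-/- mice.

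Ligands and receptors of the same pair did not always move alike. Both sides fell for *Ccl20* with *Ccr6*, at -1.26 and -2.01, and for *Cxcl9* and *Cxcl10* with *Cxcr3*. *Ccr9* fell by 1.39 on the log2 scale while *Ccl25* was 0.27 higher. *Cxcr6* fell by 0.80, and *Cxcl16* went the same way, with -0.49 and -0.53 at its probes, but was not called. *Ccl28* fell by 1.63 on the log2 scale, whereas *Ccr10*, which was well above background on 13 of 18 arrays, had a difference of 0.18 (SE 0.07, adjusted p = 0.0607). *Ccr7* and *Cxcr5* fell with *Ccl19*, *Ccl21a* and *Cxcl13* below the filter. These are values side by side, and no difference between the members of a pair was tested.

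Markers of T cells moved with the chemokine genes. Of 15 genes in a list of T cell and intraepithelial lymphocyte markers, 13 were called lower on HFD and 1, *Cd4*, higher (0.62), with a median of -1.59. *Gzma*, a cytotoxic granule protease, had a difference of -2.17, *Cd8a* -1.76, *Itgae*, the integrin that holds lymphocytes in the epithelium, -1.68, and *Cd3e* -0.66, whereas *Cd247* was at 0.01. The summed signal of the 15 genes was 25807 to 61079.9 intensity units on chow (median 43638), 19091 to 27297 in iPGC1afl/fl mice on HFD (median 23689) and 23029.5 to 36011 in iPGC1a-/- mice on HFD (median 27022). The sum adds signals on the linear scale, so the bright probes of *Cd4* and *Gzma* weigh most in it. In iPGC1afl/fl mice *Cd4* averaged 13.1 on chow and 13.7 on HFD, and *Gzma* 14.38 and 12.21, on the log2 scale. The sum on HFD therefore follows *Cd4*, which was higher there, more than the markers that fell. Chow replicates 2 and 6, which had the highest and the lowest *Ccl5*, also had the highest and the lowest sum of their group. In bulk samples, fewer cells of a type and less RNA per cell cannot be told apart. The part of T cells in the values of *Ccl3*, *Ccl4*, *Ccl5*, *Ccr9*, *Cxcr3* and *Cxcr6* was not tested.

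Some markers of B cells and follicles moved with *Ccr6*, *Ccr7* and *Cxcr5*. Of 9 tested genes of that list (*Blk* was below the filter), 5 were called lower and 0 higher, with a median of -0.85. The called genes included *Cd79b* at -2.6, *Ms4a1* at -2.0, *Cr2* at -1.20 and *Fcer2a* at -0.85. *Fcer2a* passed the filter only through the mice on chow, so that the filter itself favours a lower value on HFD. *Cd79a* was at -0.47, under the fold threshold, and *Spib*, *Pax5* and *Cd22*, at -0.10, 0.01 and 0.26, did not pass the test. The summed signal of the 9 genes was 1585 to 4703 on chow (median 2305). In iPGC1afl/fl mice on HFD it was 975 to 2085 (median 1401), and in iPGC1a-/- mice on HFD 1093 to 1895 (median 1408). In each of the 3 groups, 1 array had the highest sum and also the highest *Ccr6*, *Ccr7* and *Cxcr5*: chow replicate 1, iPGC1afl/fl HFD replicate 5 and iPGC1a-/- replicate 1. The arrays with the lowest sums, chow replicate 2, iPGC1afl/fl HFD replicate 4 and iPGC1a-/- replicate 5, also had the lowest *Ccr6* of their groups. *Cd22*, with the highest mean of the list in iPGC1afl/fl mice on HFD (9.30), weighed most in the sums there. How much lymphoid follicle each piece of ileum held was not recorded in the labels, and its part in these receptors was not tested.

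**Figure D4:**
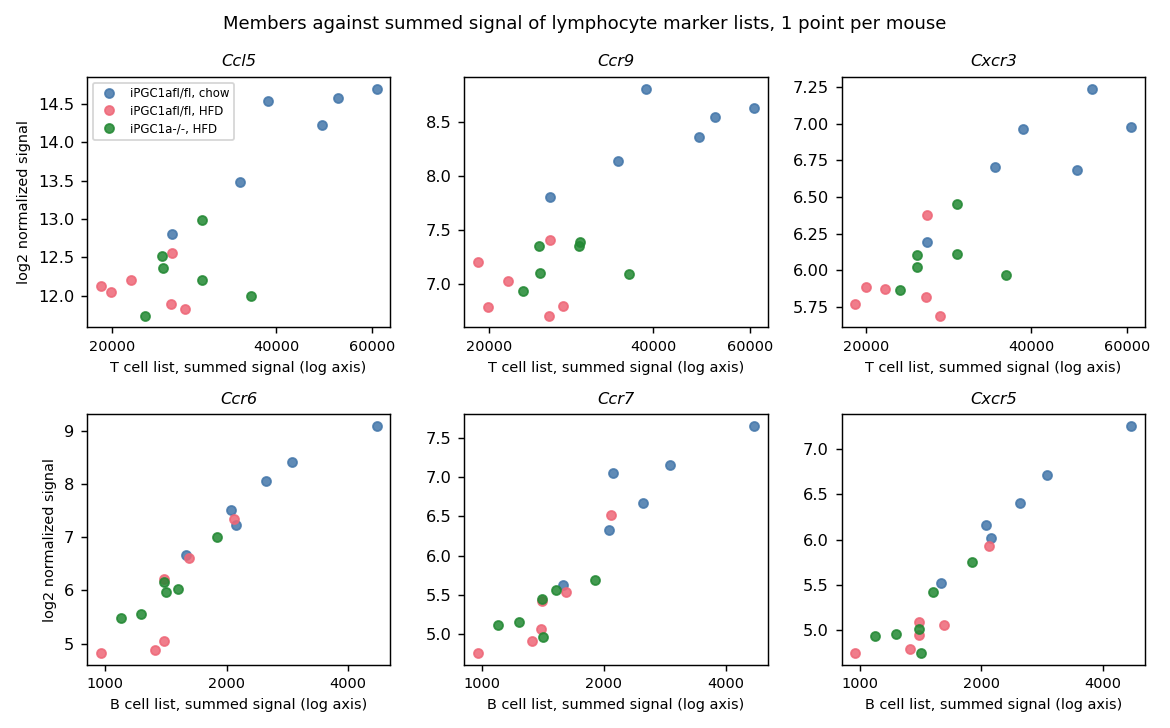
Log2 normalized signal of 6 genes against the summed signal, in intensity units on a log axis, of 15 T cell markers (upper row) or 9 B cell markers (lower row), with 1 point for each of the 18 mice coloured by group. For *Ccr6*, *Ccr7* and *Cxcr5* the mouse with the highest B cell sum in each group, 4703 on chow, is also the highest for the receptor. Each sum adds signals on the linear scale, where bright probes weigh most. In iPGC1afl/fl mice *Gzma* and *Cd79b* had higher means than *Cd4* and *Cd22* on chow, and lower means on HFD.

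Among the other lists, follicle-associated epithelium and M cell genes stood beside *Ccl20* and *Ccl9*. Of 5 tested genes 4 were called lower, *Pglyrp1* at -1.23, *Marcksl1* at -1.14, *Tnfaip2* at -0.95 and *Anxa5* at -0.82. The fifth, *Spib*, which is also in the B cell list, was at -0.10 and was not called. *Gp2* and *Sox8*, which mark M cells, were below the filter. The sum of the 5 tested genes was 6915 to 9830 on chow and 3441 to 4392 in iPGC1afl/fl mice on HFD, without overlap. Plasma cell genes stood beside *Ccl28*: 3 of 5 were called lower, *Jchain*, which joins antibody polymers, at -3.23, *Mzb1* at -1.68 and *Prdm1* at -0.94. Of 11 macrophage and dendritic cell genes, 2 were called lower, *Cd14* at -1.29 and *Itgax* at -0.82, and *Adgre1* and *C1qa* were below the filter. Among 5 neutrophil genes and 4 endothelial genes limma called 0 (1 of each at an unadjusted p under 0.05), and *S100a8*, *S100a9*, *Cdh5* and *Kdr* were below the filter. Of 8 fibroblast and smooth muscle genes *Vim* alone was called (-0.98). Of 9 epithelial genes the bile acid transporter *Slc10a2* alone was called (-1.07), and *Epcam*, *Cdh1* and *Vil1* had differences of -0.06, -0.04 and 0.20, so that the labelled cell source showed its markers in all groups. The part of these cells in the chemokine values was not tested.

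The wider pathway was counted from 3 further lists. Of 23 tested genes of receptor signalling and migration, 12 were called lower and 0 higher, with a median of -0.68. They included the integrin chains *Itgb7* (-1.71), *Itgae* (-1.68) and *Itga4* (-1.26), which lymphocytes use to enter and stay in the gut, the actin regulators *Coro1a* (-1.84) and *Dock2* (-1.09), and *Rgs1* (-1.15), which dampens chemokine receptor signals. The broadly expressed G protein subunits *Gnai2*, *Gnai3* and *Gnb1* had differences of -0.04, 0.03 and 0.21. Of 25 cytokines and regulators upstream of chemokines, 6 were called lower, among them *Ltb* (-1.77), *Nfkbiz* (-1.38), *Ifng* (-1.25), *Tlr2* (-0.99) and *Nod2* (-0.64). *Ifng* and *Nod2* passed the filter only through the mice on chow, so that the filter itself favours a lower value on HFD. *Il33*, an alarm cytokine, was the 1 called higher (0.88), and *Il1a*, *Il1b*, *Il6*, *Il17a* and *Il22* were below the filter. Of 9 other chemokine system genes 2 were called lower, the chemerin-binding receptor *Ccrl2* (-0.82) and the migration inhibitory factor *Mif* (-0.65), while *Cx3cr1*, the receptor of Cx3cl1, was at -0.19 and *Dpp4*, which cleaves chemokines, at 0.21.

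**Figure D5:**
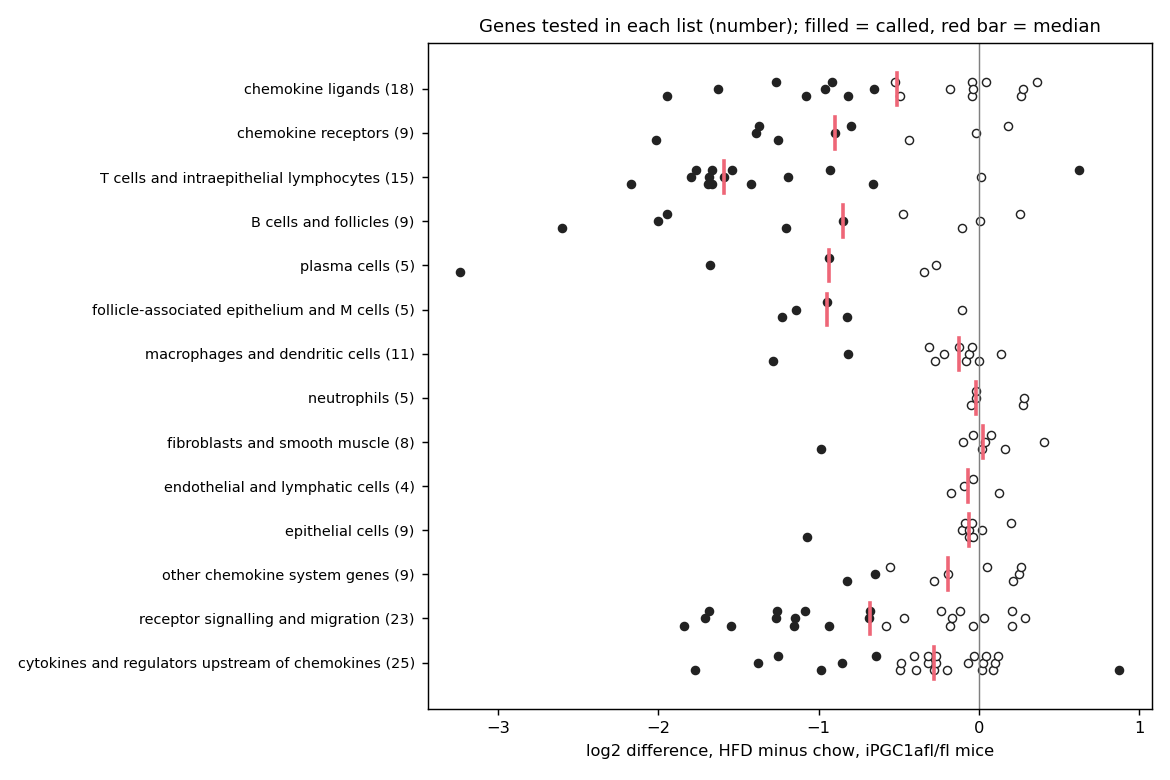
Log2 difference, HFD minus chow in iPGC1afl/fl mice (6 mice in each group), of every tested gene in 14 lists, with filled points for called genes and a red bar at the median of each list. The medians are -0.51 for ligands and -0.90 for receptors, -1.59 for T cells and intraepithelial lymphocytes and -0.06 for epithelial cells.

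Between genotypes on HFD, few differences passed the test. Only *Ccr8*, a receptor found on regulatory and type 2 helper T cells, was called of the 27 genes, against a share of 0.135% called among all genes tested and 0.0603% called higher. *Ccr8* ranged from 5.06 to 5.33 in iPGC1afl/fl mice on HFD (median 5.18), from 5.49 to 5.99 in iPGC1a-/- mice (median 5.80) and from 4.93 to 5.47 in iPGC1afl/fl mice on chow (median 5.26). All 6 iPGC1a-/- mice were above all 6 iPGC1afl/fl mice on HFD, as for 0.961% of all genes in one direction or the other. The difference was 0.59 (SE 0.11, adjusted p = 0.0173, exact permutation p = 0.00216), at the edge of the fold threshold, and it was 0.47, 0.63 and 0.66 within the 3 slides. The probe (chr9:120003941-120004000, mm9) was close to background, well above it on 4 of 6 arrays in iPGC1afl/fl mice on HFD and on 6 of 6 in iPGC1a-/- mice. The call was lost under 4 of the 13 processing alternatives that tested the gene and when any of 10 single arrays was left out, 6 of them by the fold alone. *Ccl1*, its ligand, was at 5.08 ± 0.11 and 5.18 ± 0.14 (SD, n = 6 mice each; adjusted p = 0.714).

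*Ccl24* and *Cxcl16* had differences by genotype that did not pass the test. *Ccl24*, an eosinophil-attracting ligand, ranged from 5.54 to 6.56 in iPGC1afl/fl mice and from 5.99 to 7.56 in iPGC1a-/- mice on HFD, a difference of 0.62 (SE 0.22, adjusted p = 0.390). *Cxcl16* ranged from 7.92 to 8.96 and from 8.39 to 9.33, a difference of 0.46 (SE 0.20, adjusted p = 0.493). The ranges of both genes overlapped between genotypes. The 14 genes that fell on HFD had genotype differences between -0.09 and 0.23 with standard errors of 0.13 to 0.43, and in each the ranges of both genotypes overlapped. The T cell list gave a median genotype difference of 0.23 and the B cell list of 0.14, with 0 of 15 and 0 of 9 genes called by limma (0 and 1 at an unadjusted p under 0.05). Both comparisons share the iPGC1afl/fl mice on HFD, so a high or low value there enters both.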

How the data were processed

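The authors scanned the arrays and deposited spot intensity values from Agilent Feature Extraction 10.10.1.1 with no normalization between arrays, and a table of log2 values for which their methods describe filtering, batch correction and qsmooth normalization. The washing bath and labelling batches of that correction are not in the labels used here, so it was not repeated. Spots flagged as outliers, 46 to 153 on an array, and control spots were dropped, and spots of a probe were averaged before the filter given above. The median signal on the log2 scale was brought to shared distributions by a qsmooth written for this work (window 0.05, R 4.3.3, with the package data.table, version 1.17.8), and limma 3.58.1 fitted the 3 groups together (lmFit, eBayes, Benjamini-Hochberg adjusted p). Spots well above background were 56.3% to 62.3% per array, 0 spots were saturated, and a log2 difference had a median standard error of 0.105. The number of mice limits the precision. The fit was tested on simulated data.

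Genes and lists were chosen with earlier results of these data known. A few genes are not reported here. Given with values are genes called, passing the adjusted p without the fold threshold or not overlapping in either comparison, and their ligand or receptor partners. Probes are placed on mm9 as in the array files, and promoters on GRCm38.p6. Plots used matplotlib 3.10.9 in Python 3.11.15. Alternatives were other signals, normalizations and filters, the deposited log2 values, slide and replicate blocks, other variance models, thresholds and probe summaries, and each array left out.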

Additional observations from a re-analysis of the deposited data

Results flagged for a closer look

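In 81 groups of 6 values (27 tested genes in 3 groups), 7 single values stood apart from the other 5 of their group by more than Dixon's critical value allows. Chance passes that level in about 1 of 20 groups. In iPGC1afl/fl mice on HFD, replicate 5 was the highest for *Cxcr3* (6.38, next 5.88) and *Cxcr5* (5.93, next 5.09), on the log2 scale. In mice on chow, replicate 6 was the lowest for *Cxcr6* (7.32, next 7.86) and the highest for *Cx3cl1* (12.94, next 12.64), and replicate 1 was the highest for *Ccl1* (5.34, next 5.13). In iPGC1a-/- mice, replicate 6 was the lowest for *Ccl3* (5.08, next 5.18) and replicate 2 the highest for *Ccr10* (5.34, next 5.21). *Cxcr3*, *Cxcr5* and *Cxcr6* kept their calls for HFD against chow when any single array was left out.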

How the results depend on the processing

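Of the 14 genes called for HFD against chow, 11 stayed called under all processing alternatives that tested them, and 13, all but *Ccl6*, with each single array left out. The number called was within 1.5 times of 14 except with probes well above background on all arrays, where 8 were called and 8 were lower, since fewer genes were tested. Without the fold threshold 18 passed, 2 of them higher (*Ccl25* and *Ccl27a*), with 5292 of all genes for diet and 49 for genotype. Leaving out 1 array gave 13 to 15 members called for diet, 0 to 1 for genotype, and 19 to 40 of all genes for genotype. For genotype, 0 members were called with normexp and quantile normalization, with quantile normalization, with 75th-percentile scaling of the median signal, with the authors' log2 values and with the strict filter. *Ccr8* was at 0.33, 0.58, 0.53 and 0.58 under the first 4 and was not tested under the strict filter, and with the processed signal it was at 1.26. The cause was not tested. Shifts of the median of all genes between scalings were at most 0.07.

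Among genes not called for diet, the sign turned for *Ccl1* with the processed signal (0.050) and with 75th-percentile scaling of the median signal (0.091), and under the latter also for *Ccl17* (0.028), *Ccr8* (0.11) and *Cxcl14* (0.042). It turned for *Ccr8* with quantile normalization (0.0059) and array weights (0.037), and for *Cxcl11* with averaged probes (-0.017). With 1 array left out, *Ccl1* lay between -0.068 and 0.016, *Ccl17* between -0.090 and 0.025, *Ccr8* between -0.067 and 0.030 and *Cxcl14* between -0.13 and 0.015. With the processed signal, *Ccl3* (-1.54) and *Cxcr4* (-2.03) were called.

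Whether replicate numbers pair the mice was not settled. Correlations of same-numbered deviations ran from -0.13 to 0.28 between chow and HFD and from -0.19 to 0.33 between genotypes. The same number was the best match in 4 of 6 pairs between chow and HFD and in 3 of 6 between genotypes. With the replicate block 14 members were called for diet and 1 for genotype, and 1828 and 25 of all genes. Differences near background are compressed, and *Ccl1*, *Ccl3*, *Ccr6*, *Ccr7*, *Ccr8*, *Ccr10*, *Cxcl9*, *Cxcl10*, *Cxcl14*, *Cxcr4* and *Cxcr5* were well above background on only some or none of the arrays of iPGC1afl/fl mice on HFD.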
